A study of Mus musculus with 6 samples.

Results

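The integrins and cadherins are the adhesion receptors described here, taken by gene name as the integrin alpha subunits (*Itga*), the integrin beta subunits *Itgb1* to *Itgb8* and the numbered cadherins (*Cdh*). The rule left out *Itgam*, *Itga2b* and *Cdh5*, which belong to myeloid cells, platelets and endothelium. It found 42 genes, 21 integrins and 21 cadherins, among 48733 named genes. *Itga10*, *Itgad*, *Itgax* and *Cdh23* have no row under their own name and were not analysed here. RNA was sequenced from 3 libraries labelled bone, the cortex of the femur after its marrow was spun out, and 3 labelled osteoblasts, which were grown from bone marrow stromal cells and kept for 8 days in medium with ascorbic acid (50 µg/ml), beta-glycerophosphate (10 mM) and dexamethasone (10 nM). All 6 came from inbred mice of the Collaborative Cross strain CC016/GeniUnc, with no other genotype or treatment named, and the age and sex of the mice are not given in the sources used here. The study names 3 mice and does not say which libraries share a mouse, so p-values measure the spread between these libraries only. The libraries are named bone 1 to bone 3 and osteoblasts 1 to osteoblasts 3 after their labels. Levels are FPKM (fragments per kilobase of transcript, scaled to the aligned fragments of the library), which are per length and can be compared between genes.

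Integrins are receptors made of an alpha and a beta subunit that together span the cell membrane. The alpha subunit largely sets the ligand, and the tail of the beta subunit binds talin and kindlin, which link it to actin. In bone, alpha subunits that pair with the beta 1 subunit hold osteoblasts to collagen and fibronectin, the alpha v beta 3 integrin attaches osteoclasts to bone and is also found on platelets, and the beta 2 and beta 7 integrins belong to leukocytes. Classical cadherins join like cells to each other through calcium-dependent contacts and are tied to actin by catenins. *Cdh11* (osteoblast cadherin) and *Cdh2* (N-cadherin) are the classical cadherins of osteoblasts.

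The 4 subunit genes below are examples with opposite orders over the libraries in FPKM, and they do not stand for their classes. The 250 bases before their RefSeq start are given for reference (GRCm38.p6, read 5' to 3' on the strand of the gene). *Itgb1* (chr8:128685404-128685653, plus strand) and *Itgb5* (chr16:33829415-33829664, plus strand) encode matrix-binding beta subunits that were high in 3 of the 6 libraries, and the other 2 genes had higher FPKM in the remaining 3, by a margin of only 1.18 times for *Itga4*, which lost that order with TPM or with FPKM scaled to the named genes. *Itgb7* (chr15:102231936-102232185, minus strand) and *Itga4* (chr2:79255176-79255425, plus strand) encode the subunits of a leukocyte integrin, although alpha 4 also occurs on other cells. Capitals mark GGGCGG, the GC box, on either strand.
Itgb1: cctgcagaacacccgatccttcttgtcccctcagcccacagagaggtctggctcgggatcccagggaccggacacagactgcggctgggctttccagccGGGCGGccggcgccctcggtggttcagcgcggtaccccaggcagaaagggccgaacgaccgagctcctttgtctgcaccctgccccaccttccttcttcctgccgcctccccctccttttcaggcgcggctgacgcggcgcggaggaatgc
Itgb5: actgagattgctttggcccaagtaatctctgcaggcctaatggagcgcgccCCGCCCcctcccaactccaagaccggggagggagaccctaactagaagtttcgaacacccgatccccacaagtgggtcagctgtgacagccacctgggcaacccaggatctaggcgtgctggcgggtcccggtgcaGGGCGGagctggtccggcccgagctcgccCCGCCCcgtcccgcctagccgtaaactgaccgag
Itgb7: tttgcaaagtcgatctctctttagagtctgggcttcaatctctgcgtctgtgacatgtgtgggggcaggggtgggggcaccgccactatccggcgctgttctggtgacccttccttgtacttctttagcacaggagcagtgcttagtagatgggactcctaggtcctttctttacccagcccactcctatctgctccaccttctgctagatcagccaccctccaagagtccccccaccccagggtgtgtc
Itga4: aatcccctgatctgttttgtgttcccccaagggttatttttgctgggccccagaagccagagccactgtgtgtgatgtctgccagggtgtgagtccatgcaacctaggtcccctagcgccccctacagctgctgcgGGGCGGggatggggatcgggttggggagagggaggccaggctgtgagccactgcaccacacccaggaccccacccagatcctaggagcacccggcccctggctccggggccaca
The GC box occurred 3 times in the *Itgb5* window, 1 time in those of *Itgb1* and *Itga4*, and not in that of *Itgb7*. In windows of this length it was present in 32.7% of 32851 RefSeq promoters and in those of 10 of the 26 members with an entry. G and C made up 68.0% of the *Itgb1* window, 65.2% of that of *Itgb5*, 64.0% of that of *Itga4* and 56.0% of that of *Itgb7*. TATAAA was found in 0 of the 26 members' promoters, on either strand, against 12.4% of all promoters. TGANTCA, the AP-1 motif, was found in 0 of the 26, against 6.75% of all. GAGGAA, a core of sites for the myeloid factor PU.1, was present for 11 of the 26 members and in 23.3% of all promoters, and of the 4 windows printed only that of *Itgb1* held it. TGTGGT, which RUNX factors bind, was present for 5 of the 26 and in 14.0% of all, and the E-box CAGNTG for 14 of the 26 and in 44.8% of all. Members were counted as genes with a match in any of their promoters and the background as single promoters, so these shares are in unlike units. These letters are a description of the windows and show no binding.

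The libraries did not group by their labels. The hemoglobin gene *Hbb-bt* was above 1000 FPKM in bone 3, osteoblasts 2 and osteoblasts 3 (34268 to 48650 FPKM) and at 3.43 to 7.05 FPKM in bone 1, bone 2 and osteoblasts 1. Across 12112 genes with a mean of at least 1 FPKM, libraries alike in *Hbb-bt* correlated at r = 0.965 to 0.973 on the scale of log2(FPKM + 1), and libraries that differed in it at 0.640 to 0.680, as a description across genes that are not independent. Depth was read from the ratio of coverage to FPKM and implied 13566667 to 22586667 aligned read pairs per library. At that depth 3 pairs on a transcript of 1 kb give 0.133 to 0.221 FPKM, for counting error only. On a longer transcript 3 pairs give a lower FPKM, so a value under this floor can rest on more than 3 pairs. Features without a name held 65.0 and 71.5% of the summed FPKM in osteoblasts 1 and bone 2, and 27.4 to 30.7% in the others. Osteoblast markers were present under both labels, with 6 of 7 named in the tables and a summed level of 3151 to 5043 FPKM. Skeletal muscle and endothelial markers were, like *Hbb-bt*, high in the 3 libraries with *Hbb-bt* above 1000 FPKM, which goes against the label osteoblasts in 2 of them, and low in the other 3, of which 2 are labelled bone. The 5 endothelial markers summed to 33.5 to 47.1 FPKM against 0.273 to 5.04 FPKM. *Tek*, *Ckm*, *Tnnt3*, *Ppbp* and *Calcr* were listed at 0 in at least 1 library. The osteocyte markers, 3 of 4 named, summed to 45.4 to 51.4 FPKM in the libraries with *Hbb-bt* above 1000 FPKM and to 55.3 to 133 FPKM in the others, although 1 of the 3 had its highest values and 1 its lowest values in the former. No library was averaged by its *Hbb-bt* level.

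Of the 42 members, 24 reached 1 FPKM in at least 1 library and 21 had a mean of at least 1 FPKM and were tested. Of these 21, 10 had their 3 highest values in the libraries with *Hbb-bt* above 1000 FPKM, against 38.4% of all 12112 genes. The 3 lowest values fell in those libraries for 9 of the 21, against 16.9% of all genes. The members left were *Itga1* and *Itgal*. Of the 10, *Itga2*, *Itgb4*, *Itgb7*, *Cdh15* and *Cdh24* were under 1 FPKM in each of the other 3 libraries, so they passed the filter through the libraries in which they are high. *Itga4*, *Itga6*, *Itga7* and *Itgb2* no longer had this order with TPM or with FPKM scaled to the named genes, where 6 of the 21 did, against 25.0% of all genes with TPM and 21.4% with that scaling. The 9 with the opposite order all had it under both scalings, and *Itga1* and *Itgal* joined them with FPKM scaled to the named genes. The share of all genes with this order was 16.0% with TPM and 48.6% with FPKM scaled to the named genes, so that the 11 of 21 members under the latter scaling are near the background. Labels that do not overlap were seen for 0 of the 21 members, against 0.479% of all genes with osteoblasts higher and 0.438% with osteoblasts lower.

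**Figure D1:**
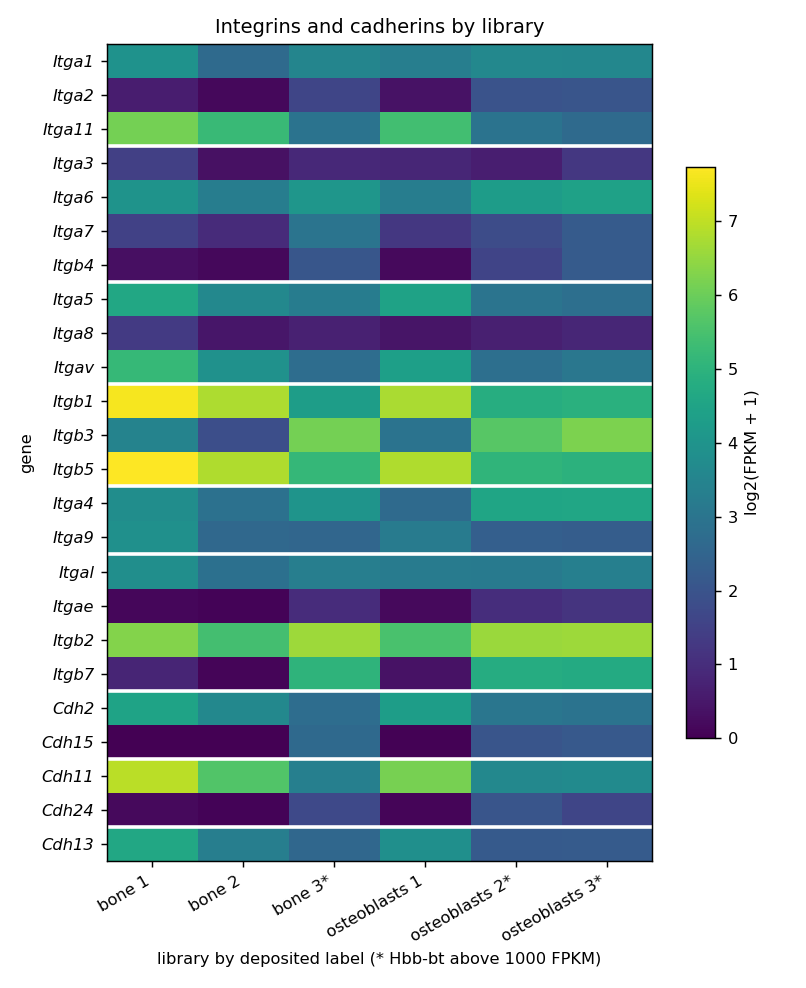
Levels of the 24 members that reached 1 FPKM, as log2(FPKM + 1) by colour, with 1 column for each library (asterisks mark *Hbb-bt* above 1000 FPKM) and 1 row for each gene, with white lines between classes. *Itgb1*, *Itgb5*, *Itga11* and *Cdh11* are brightest in bone 1, bone 2 and osteoblasts 1, while *Itgb3* and *Itgb7* are brighter in the other 3 libraries.

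Among the collagen receptors, *Itga11*, which binds fibrillar collagen with beta 1 and is typical of mesenchymal cells, measured 68.5, 36.9 and 6.64 FPKM in bone 1, bone 2 and bone 3 and 41.2, 6.69 and 5.36 FPKM in osteoblasts 1, osteoblasts 2 and osteoblasts 3. Its 3 libraries with *Hbb-bt* at or under 1000 FPKM were at least 5.52 times as high as the other 3, and each label held both high and low libraries. *Itga1*, a receptor that favours collagen IV, measured 14.4, 5.43 and 10.4 FPKM under the label bone and 8.98, 11.2 and 10.9 FPKM under the label osteoblasts. Its levels did not follow *Hbb-bt*, so that the ratio of *Itga11* to *Itga1* within a library, which does not depend on scaling, was 4.75, 6.80 and 4.59 in bone 1, bone 2 and osteoblasts 1 and 0.493 to 0.638 in the other 3. *Itga2*, the collagen receptor of platelets and epithelium, measured 2.07 FPKM in bone 3 and 2.95 and 3.15 FPKM in osteoblasts 2 and osteoblasts 3, and at most 0.537 FPKM in the others. Its value in bone 2 lies under the floor for a transcript of 1 kb. *Itga2* (114833081 to 114932100) and *Itga1* (114953096 to 115101964) lie close together on the minus strand of chromosome 13 in the GRCm38 coordinates of the tables, and the order of their levels over the libraries differed.

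The RGD receptors bind fibronectin, vitronectin and osteopontin through the tripeptide arginine, glycine and aspartate. *Itgav*, the alpha v subunit, measured 35.1, 14.2 and 5.84 FPKM in bone 1, bone 2 and bone 3 and 19.8, 6.04 and 7.39 FPKM in osteoblasts 1, osteoblasts 2 and osteoblasts 3. *Itga5*, the fibronectin receptor, measured 23.7, 11.1 and 8.42 FPKM in the libraries labelled bone and 20.9, 6.87 and 6.13 FPKM in those labelled osteoblasts. Both were higher in bone 1, bone 2 and osteoblasts 1 than in any other library, by at least 1.92 times for *Itgav* and 1.32 times for *Itga5*. *Itga8*, which binds nephronectin, reached 1.49 FPKM in bone 1 and 0.349 to 0.769 FPKM elsewhere.

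The beta subunits of these receptors include the members with the highest levels in bone 1, bone 2 and osteoblasts 1. *Itgb5*, a partner of alpha v, measured 213, 111 and 34.5 FPKM in bone 1, bone 2 and bone 3 and 112, 32.7 and 30.1 FPKM in osteoblasts 1, osteoblasts 2 and osteoblasts 3. *Itgb1*, the common partner of most matrix-binding alpha subunits, measured 196, 110 and 19.0 FPKM in the libraries labelled bone and 107, 27.2 and 28.9 FPKM in those labelled osteoblasts. These 2 genes kept near each other, with a ratio of *Itgb5* to *Itgb1* of 1.01 to 1.82 over the 6 libraries. *Itgb3*, the beta subunit of the osteoclast and platelet integrins, took the opposite order with 9.97, 2.62 and 69.3 FPKM in bone 1, bone 2 and bone 3 and 6.79, 52.6 and 73.8 FPKM in osteoblasts 1, osteoblasts 2 and osteoblasts 3. The libraries high in *Itgb3* were those with *Hbb-bt* above 1000 FPKM, by at least 5.28 times. The 4 named megakaryocyte markers of a list of 5 summed to 600 to 746 FPKM in those libraries and to 52.9 to 119 FPKM in the other 3, and the 4 osteoclast markers to 442 to 492 FPKM and 44.6 to 251 FPKM. Of the 4 osteoclast markers, 2 had their 3 highest values in the libraries with *Hbb-bt* above 1000 FPKM. Among the markers tested this order held for 4 of 4 megakaryocyte and 1 of 2 osteoclast markers, beside 38.4% of all genes. Their part in the level of *Itgb3* was not tested, and in bulk RNA fewer cells of a type and less RNA per cell cannot be told apart.

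As shares of the summed FPKM of *Itgb1* to *Itgb8*, *Itgb1* made up 39.3, 41.3 and 7.47% in bone 1, bone 2 and bone 3 and 39.5, 11.5 and 11.1% in osteoblasts 1, osteoblasts 2 and osteoblasts 3. *Itgb5* made up 42.7, 41.7 and 13.6%, then 41.4, 13.8 and 11.6%, in the same order. The share of *Itgb2* was 15.7, 15.9 and 37.7% in the libraries labelled bone and 16.4, 40.0 and 37.5% in those labelled osteoblasts. *Itgb3* took 0.986 to 2.51% in bone 1, bone 2 and osteoblasts 1 and 22.2 to 28.5% in the other 3. *Itgb7* took at most 0.147% in the first 3 and 9.75 to 12.5% in the others. No share depends on the scaling of a library, and for each of these 5 subunits both labels held libraries of either kind.

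**Figure D2:**
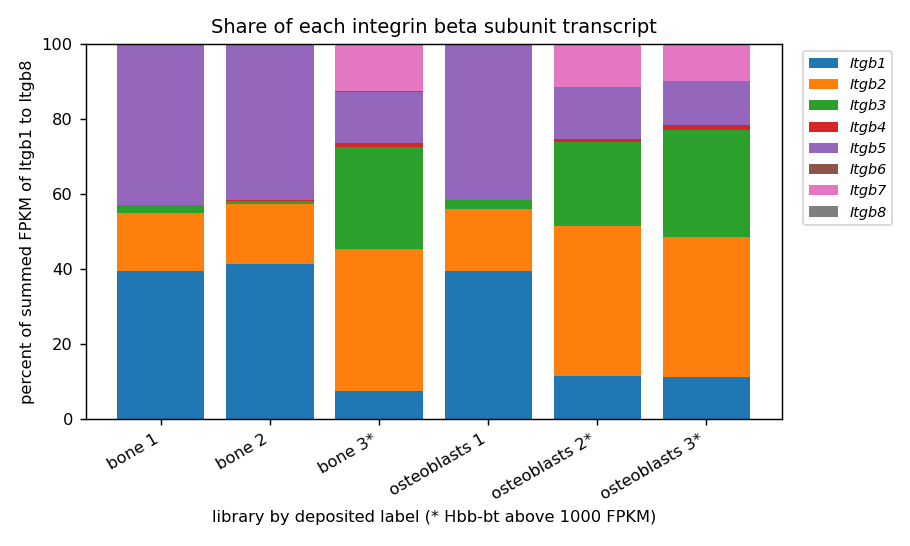
Stacked bars give each integrin beta subunit as a percent of the summed FPKM of *Itgb1* to *Itgb8* in each library, with asterisks where *Hbb-bt* was above 1000 FPKM. *Itgb1* and *Itgb5* fill most of the bars of bone 1, bone 2 and osteoblasts 1, and *Itgb2*, *Itgb3* and *Itgb7* most of the other 3.

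The laminin receptors bind basement membranes. *Itga6*, the alpha 6 subunit, whose order over the libraries changed with scaling, measured 14.6, 8.67 and 15.8 FPKM in bone 1, bone 2 and bone 3 and 8.75, 18.3 and 20.7 FPKM in osteoblasts 1, osteoblasts 2 and osteoblasts 3, with 1.08 times between the nearest libraries that differ in *Hbb-bt*. *Itga7*, the laminin receptor of skeletal muscle, measured 1.83, 0.943 and 6.85 FPKM under the label bone and 1.40, 2.45 and 3.66 FPKM under the label osteoblasts. Its highest level was in bone 3, as was that of the 3 named skeletal muscle markers of a list of 5, which summed to 943 FPKM there, to 221 and 461 FPKM in osteoblasts 2 and osteoblasts 3 and to at most 1.09 FPKM in the others. The part of muscle RNA in the level of *Itga7* was not tested. *Itgb4*, which pairs with alpha 6 in epithelium, measured 3.22 FPKM in bone 3 and 1.99 and 3.68 FPKM in osteoblasts 2 and osteoblasts 3, and at most 0.258 FPKM elsewhere. Its values in bone 2 and osteoblasts 1 lie under the floor for a transcript of 1 kb. *Itga3* ranged from 0.266 to 1.75 FPKM, and its libraries did not part by label or by *Hbb-bt*.

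The leukocyte integrins did not share an order over the libraries. *Itgb2*, the beta 2 subunit common to the leukocyte integrins, measured 78.0, 42.4 and 95.9 FPKM in bone 1, bone 2 and bone 3 and 44.6, 94.7 and 97.3 FPKM in osteoblasts 1, osteoblasts 2 and osteoblasts 3. It was highest where *Hbb-bt* was above 1000 FPKM, by at least 1.21 times, an order it lost with TPM or with FPKM scaled to the named genes. *Itgal*, its partner in the LFA-1 receptor for ICAMs, measured 13.1, 6.27 and 8.93 FPKM in the libraries labelled bone and 8.24, 8.10 and 9.09 FPKM in those labelled osteoblasts, and its ranges under both labels and both *Hbb-bt* levels overlapped. All 8 leukocyte markers had named rows, and their summed level was 4201 to 7734 FPKM in bone 1, bone 2 and osteoblasts 1 and 9941 to 12666 FPKM in the other 3, with *S100a8* and *S100a9* listed at 0 in some library. Of the 8, 4 had their 3 highest values in the latter libraries and 1 its 3 lowest. The part of leukocyte RNA in these levels was not tested.

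*Itgb7*, which pairs with alpha 4 and alpha E in lymphocytes and other blood cells, had the order of *Itgb2* in FPKM but parted the libraries far more widely. It measured 0.730, 0.0772 (under the floor for a transcript of 1 kb) and 31.8 FPKM in bone 1, bone 2 and bone 3 and 0.292, 26.9 and 25.3 FPKM in osteoblasts 1, osteoblasts 2 and osteoblasts 3. Its ratio to *Itgb2* within a library was at most 0.00936 in bone 1, bone 2 and osteoblasts 1 and 0.260 to 0.331 in the other 3. *Itgae*, the alpha E subunit, which binds E-cadherin, measured 0.967 to 1.24 FPKM in the libraries with *Hbb-bt* above 1000 FPKM and 0.0578 to 0.146 FPKM in the others, each under the floor of its library for a transcript of 1 kb. *Itgb7* (102215995 to 102231935) and *Itga5* (103344286 to 103366763) both lie on the minus strand of chromosome 15 and had opposite orders over the libraries.

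*Itga4* and *Itga9* bind both matrix proteins and VCAM1 and occur on leukocytes as well as other cells, so they were kept in neither list. *Itga4* measured 12.8, 6.34 and 15.1 FPKM in bone 1, bone 2 and bone 3 and 5.34, 22.7 and 22.8 FPKM in osteoblasts 1, osteoblasts 2 and osteoblasts 3. *Itga9* measured 13.9, 5.13 and 4.82 FPKM in the libraries labelled bone and 8.26, 4.12 and 3.91 FPKM in those labelled osteoblasts. These related subunits had opposite orders in FPKM, which *Itga4* lost with TPM or with FPKM scaled to the named genes, and the nearest libraries that differ in *Hbb-bt* were 1.18 times apart for *Itga4* and 1.07 times apart for *Itga9*.

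To contrast the matrix-binding with the leukocyte integrins, the FPKM of 15 named genes of the first list and 4 of the second (*Itgal*, *Itgae*, *Itgb2* and *Itgb7*) were summed in each library. The matrix-binding sum was 582, 302 and 184 FPKM in bone 1, bone 2 and bone 3 and 329, 171 and 196 FPKM in osteoblasts 1, osteoblasts 2 and osteoblasts 3. The leukocyte sum was 91.9, 48.8 and 138 FPKM in the libraries labelled bone and 53.3, 131 and 133 FPKM in those labelled osteoblasts. The sum over 15 matrix-binding genes exceeded that over 4 leukocyte genes in all 6 libraries, and the sums came nearest to each other where *Hbb-bt* was above 1000 FPKM. The matrix-binding genes did not share an order over the libraries. Of the 11 tested, 5 had their 3 highest values where *Hbb-bt* was above 1000 FPKM and 5 their 3 lowest, beside 38.4 and 16.9% of all genes. Of the first 5, *Itga6* and *Itga7* lost this order with TPM or with FPKM scaled to the named genes. *Itga2* and *Itgb4*, also among them, passed the filter through those libraries only. As a mean over genes the direction differed between libraries. The mean of log2(FPKM + 1) over the leukocyte list was subtracted from that over the matrix-binding list. This gave 0.45, 0.30 and -1.23 in bone 1, bone 2 and bone 3. It gave 0.39, -1.25 and -1.18 in osteoblasts 1, osteoblasts 2 and osteoblasts 3. The leukocyte list thus had the higher mean in the 3 libraries with *Hbb-bt* above 1000 FPKM. Of its 4 genes, *Itgb7* measured 25.3 to 31.8 FPKM in these 3 libraries. In bone 1, bone 2 and osteoblasts 1 its range was 0.0772 to 0.730 FPKM. The change of sign rests on *Itgb7*, which passed the filter only through the 3 libraries with *Hbb-bt* above 1000 FPKM. From the levels of *Itgal*, *Itgae* and *Itgb2* alone, the leukocyte list would have the higher mean in all 6 libraries.

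**Figure D3:**
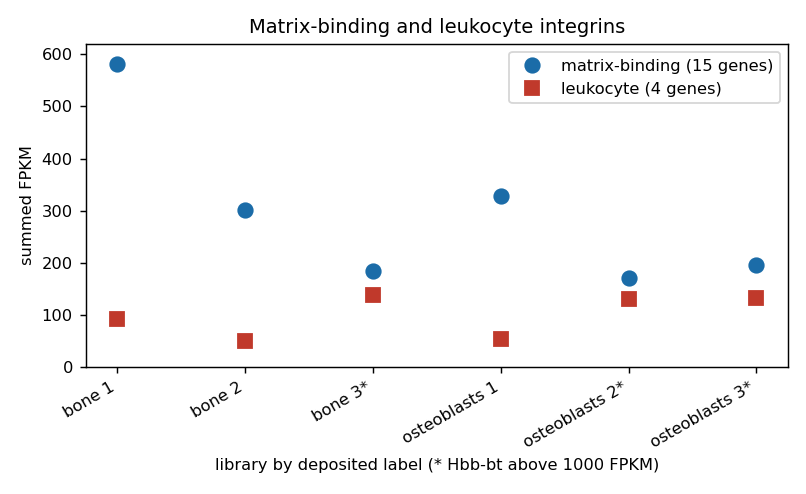
Summed FPKM of the matrix-binding integrins (blue circles, 15 genes) and the leukocyte integrins (red squares, 4 genes) in each library, on a linear axis from 0, with asterisks where *Hbb-bt* was above 1000 FPKM. The matrix-binding sum is 302 to 582 FPKM in the libraries without an asterisk and 171 to 196 FPKM in those with it. Of the 11 matrix-binding genes tested, 5 had their 3 highest and 5 their 3 lowest values in the latter, beside 38.4 and 16.9% of all genes. Of the first 5, *Itga6* and *Itga7* lost this order with TPM, and *Itga2* and *Itgb4* passed the filter through those libraries only.

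The log2 ratio of the sums was 2.66, 2.63 and 0.42 in bone 1, bone 2 and bone 3 and 2.63, 0.39 and 0.56 in osteoblasts 1, osteoblasts 2 and osteoblasts 3. The mean log2 ratio for bone was 1.90 ± 1.28 (SD, n = 3), that for osteoblasts 1.19 ± 1.25 (SD, n = 3), so that the difference of -0.71 was smaller than the SD under either label, and no test was run on this sum over genes. Without bone 3 the difference was -1.45 and without osteoblasts 1 it was -1.43, against -0.31 to -0.40 without any of the other 4 libraries in turn. With the alpha subunits alone the log2 ratio was 3.61 to 3.62 in bone 1, bone 2 and osteoblasts 1 and 2.53 to 2.61 in the other 3, and the difference between the labels was -0.34. The leukocyte side of that ratio held only *Itgal* and *Itgae*, since *Itgam* was left out by the rule and *Itgax* and *Itgad* have no named row. Its size therefore depends on which subunits were counted. Without *Itgb1* the difference was -0.59.

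The cadherins were led by *Cdh11*, which measured 122, 48.8 and 9.16 FPKM in bone 1, bone 2 and bone 3 and 70.4, 11.2 and 12.2 FPKM in osteoblasts 1, osteoblasts 2 and osteoblasts 3. *Cdh2* measured 21.7, 11.2 and 5.77 FPKM in the libraries labelled bone and 18.8, 7.23 and 6.78 FPKM in those labelled osteoblasts. *Cdh13*, T-cadherin, which is held by a lipid anchor and binds adiponectin, measured 24.2, 8.82 and 5.01 FPKM and then 13.5, 3.56 and 3.62 FPKM. All 3 were highest in bone 1, bone 2 and osteoblasts 1, by at least 4.01 times for *Cdh11*, 1.55 times for *Cdh2* and 1.76 times for *Cdh13*. Of the summed cadherin FPKM, *Cdh11* made up 68.1 to 72.2% in those libraries and 32.4 to 41.5% in the other 3.

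The opposite order was seen for *Cdh15* and *Cdh24*. *Cdh15*, the M-cadherin of skeletal muscle and its satellite cells, measured 0.0184, 0.0106 and 5.20 FPKM in bone 1, bone 2 and bone 3 and 0.0230, 3.09 and 3.50 FPKM in osteoblasts 1, osteoblasts 2 and osteoblasts 3. The low values lie under the floor for a transcript of 1 kb, and the order of the high ones is that of the skeletal muscle markers, whose part was not tested. *Cdh24*, a type II cadherin, measured 2.26 FPKM in bone 3 and 3.09 and 2.04 FPKM in osteoblasts 2 and osteoblasts 3, against 0.0507 to 0.151 FPKM in the others. These low values too lie under the floor for a transcript of 1 kb.

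**Figure D4:**
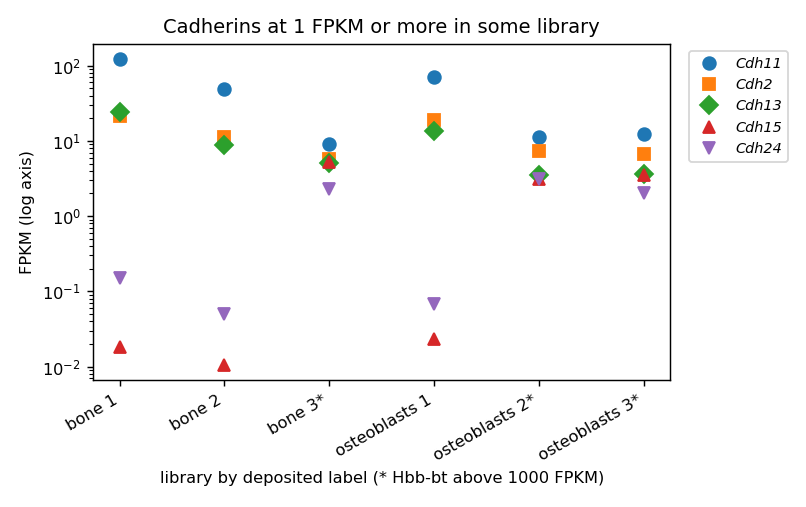
FPKM on a log axis of the 5 cadherins that reached 1 FPKM, with 1 symbol for each gene and asterisks where *Hbb-bt* was above 1000 FPKM. *Cdh11* lies at 48.8 to 122 FPKM in the libraries without an asterisk and at 9.16 to 12.2 FPKM in those with it, while *Cdh15* lies at or under 0.0230 FPKM in the former and at 3.09 to 5.20 FPKM in the latter.

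The remaining 18 members were under 1 FPKM in each library, with 0.562 FPKM as the highest value of any of them. They were 16 cadherins (*Cdh1*, *Cdh3*, *Cdh4*, *Cdh6*, *Cdh7*, *Cdh8*, *Cdh9*, *Cdh10*, *Cdh12*, *Cdh16*, *Cdh17*, *Cdh18*, *Cdh19*, *Cdh20*, *Cdh22* and *Cdh26*) and the integrins *Itgb6* and *Itgb8*, whose products activate latent TGF-beta with alpha v. Of these cadherins 6 were listed at 0 in all 6 libraries, namely *Cdh7*, *Cdh9*, *Cdh12*, *Cdh20*, *Cdh22* and *Cdh26*, and were not detectable at this depth.

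Limma was run across all 12112 genes for the difference between the labels, osteoblasts minus bone, on log2(FPKM + 1). Since markers went against some labels, an exchange of labels between libraries is possible and was not tested, and each difference is between the libraries as labelled. At a Benjamini-Hochberg adjusted threshold of 0.05, 0 genes (0%) were higher and 0 genes (0%) lower, while the unadjusted p was under 0.05 for 17 genes. None of the 21 members was called and 0 of them had an unadjusted p under 0.05. Their median log2 difference was -0.05, against 0.12 over all genes tested. The largest positive difference among the members was that of *Itgb7*, with 10.9 ± 18.1 FPKM (SD, n = 3) for bone and 17.5 ± 14.9 FPKM (SD, n = 3) for osteoblasts, a log2 difference of 1.32 (standard error 1.47, limma adjusted p = 0.999). The largest negative one was that of *Itga11*, with 37.4 ± 30.9 FPKM (SD, n = 3) and 17.8 ± 20.3 FPKM (SD, n = 3), a log2 difference of -1.10 (standard error 0.95, limma adjusted p = 0.999). For *Itgb1* the log2 difference was -0.76 with a 95% interval of -2.81 to 1.29, and for *Cdh11* it was -0.81 with an interval of -3.06 to 1.43. Among the leukocyte integrins the log2 difference of *Itgb2* was 0.12 with an interval of -1.17 to 1.41 and that of *Itgal* was -0.09 with an interval of -1.06 to 0.88. The intervals of these genes include differences of either sign, and the median SD within a label was 0.96 over the 21 members and 0.59 over all genes on the same scale.

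**Figure D5:**
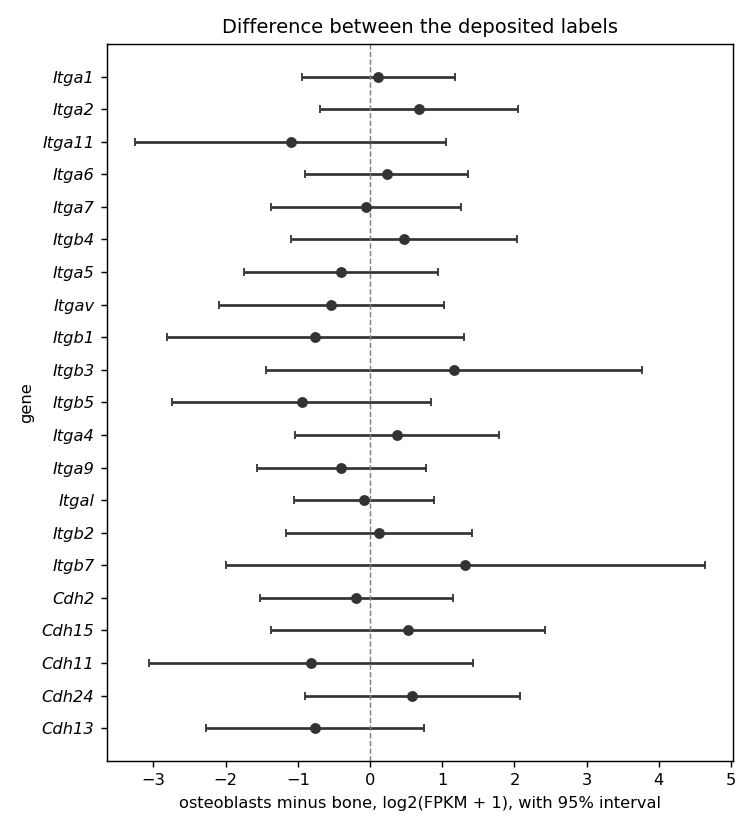
Difference between the means of the libraries labelled osteoblasts and bone on the scale of log2(FPKM + 1) for the 21 members tested, with n = 3 libraries for each label, where points are limma estimates and bars their 95% intervals. Each interval includes 0, and those of *Itgb7* and *Itgb3* are the widest.

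Leaving out osteoblasts 1, limma called 300 genes (2.48%) and 1 of the 21 members, *Itgb7* (log2 difference 2.78, limma adjusted p = 0.043). Both libraries then left under the label osteoblasts have *Hbb-bt* above 1000 FPKM, *Itgb7* passed the filter through such libraries only, and label and *Hbb-bt* level are hard to separate in that fit. Its log2 difference between the labels was -0.08 among the libraries with *Hbb-bt* at or under 1000 FPKM and -0.27 among those above. Leaving out bone 3, limma called 77 genes (0.636%) and 0 members. For the other members too, the labels were set side by side within the libraries alike in *Hbb-bt*. Among the 3 libraries with *Hbb-bt* at or under 1000 FPKM, 2 labelled bone and 1 osteoblasts, the log2 differences of the 21 members ran from -0.67 (*Itga4*) to 0.34 (*Itga5*). Among the 3 above 1000 FPKM, 1 labelled bone and 2 osteoblasts, they ran from -0.97 (*Itga7*) to 0.56 (*Itga4*). Over all 6 libraries they ran from -1.10 to 1.32. Each set has 1 library under one of the labels, so these differences are given as values only.

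The proteins with which integrins and cadherins work were taken as a list of 41 adaptors, kinases, catenins, matrix ligands and counter-receptors, of which 35 had a named row and 29 were tested. Limma called 0 of them higher and 0 lower, and 0 had an unadjusted p under 0.05, with a median log2 difference of -0.06. Of the 13 adaptors and kinases tested, such as talin and kindlin, 6 had their 3 highest values in the libraries with *Hbb-bt* above 1000 FPKM and 4 their 3 lowest, beside the 38.4 and 16.9% of all genes. Of the 10 matrix ligands tested, such as fibronectin and the type I collagens, 0 were highest and 6 lowest in those libraries. Of the 4 catenins tested, 1 was highest and 2 were lowest there, and of the 2 counter-receptors 1 was highest and 0 were lowest. The matrix ligands summed to 3928 to 4926 FPKM in the libraries with *Hbb-bt* above 1000 FPKM and to 6213 to 10434 FPKM in the other 3, and the catenins to 141 to 159 FPKM and 179 to 353 FPKM.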

How the data were processed

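The authors made RNA libraries with a TruSeq RNA kit, which does not mark strand, used HISAT2 2.0.5 to align read pairs of 75 bp to GRCm38, and estimated abundance with StringTie 1.3.3, where SAMtools 1.7 is also named in the submitters' processing notes. They deposited, for each of 93288 to 93290 features per library, the coverage (a signal), the FPKM and the TPM, and read counts were not used here. FPKM are scaled to all aligned fragments of the library, and genes that overlap on opposite strands cannot be told apart.

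Rows of a name were summed. Members were matched by name, and the members and gene lists were chosen with earlier results of these data known. Members with at least 1 FPKM in some library are given with their values, and the others are named or counted. Genes with a mean of at least 1 FPKM were fitted with limma 3.58.1 in R 4.3.3 (lmFit, eBayes with a trend) on log2(FPKM + 1), with Benjamini-Hochberg adjustment over all genes, and the fit was tested on simulated data, where it recovered the changes made at a small spread between libraries but not at the spread of these libraries, so that a lack of calls does not show a lack of change. Fold changes on this scale understate those of low genes. Promoters came from RefSeq (GRCm38.p6), where 26 of the 42 members have an entry, and no protein sequence was used here. Sums, ratios and plots were made in Python 3.11.15 (pandas 2.3.3, matplotlib 3.10.9). The alternatives were another pseudocount, filters, TPM and further scalings, a replicate block, no trend in limma, other lists of subunits, libraries alike in *Hbb-bt*, and leaving out each library. The sum of the erythroid marker list is not reported here.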

Additional observations from a re-analysis of the deposited data

How the results depend on the processing

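Limma called 0 genes with another pseudocount, filter or scaling, with TPM or without a trend, and 49 genes with the replicate number as a block, of which 0 were members. Among the libraries with *Hbb-bt* at or under 1000 FPKM it called 8 genes and among those above it 1 gene, in fits with 1 library under one label that say little about genes not called. Leaving out each library in turn gave 0 to 300 genes and 0 to 1 members, with 300 genes and *Itgb7* without osteoblasts 1 and 77 genes without bone 3. Same-numbered libraries deviated together for numbers 1 and 3 (r = 0.841 and 0.830 across genes) and not for number 2 (r = -0.747). Unlike-numbered libraries alike in *Hbb-bt* deviated together as well, with r = 0.803 for bone 2 with osteoblasts 1 and 0.831 for bone 3 with osteoblasts 2. The sign of r went with the *Hbb-bt* level, so these values cannot tell which libraries share a mouse. The study does not name them either, and the main fit did not pair the libraries. The count of members with their 3 highest values where *Hbb-bt* was above 1000 FPKM was 6 with TPM and 6 with FPKM scaled to the named genes, in place of 10 of 21, and it was 5 of 16 with a mean of at least 5 FPKM (38.2% of all genes) and 14 of 36 with no filter (32.4% of all genes). The count with their 3 lowest values there was 9 of 21 with TPM (16.0% of all genes) and 11 of 21 with FPKM scaled to the named genes (48.6%). It was 9 of 16 with a mean of at least 5 FPKM (18.0%) and 11 of 36 with no filter (9.32%). Scaling to the named genes moved the median log2 difference of all genes from 0.12 to -0.03. The sign of the difference between the labels was the same under all settings for 3 of the 21 members. *Itgb7*, called only without osteoblasts 1, had the opposite sign within each set of libraries alike in *Hbb-bt*. Since read counts were not used, no interval for a single FPKM value was computed.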
